A study of Mus musculus with 24 samples.

Results

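The matrix metalloproteinases (MMPs), the ADAMTS proteases (a disintegrin and metalloproteinase with thrombospondin motifs) and the tissue inhibitors of metalloproteinases (TIMPs) were followed through the differentiation of mouse white and brown preadipocytes. Members were the protein-coding genes whose symbols read Mmp, Adamts or Timp followed by a number (Timp1 to Timp4, and Mmp1a and Mmp1b with their letter). The rule used names alone and no measured value. It found 46 of the 37310 genes in the deposited tables: 23 Mmp, 19 Adamts and 4 Timp genes.

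Stromal vascular fraction (SVF) cells of inguinal white adipose tissue (WAT) or interscapular brown adipose tissue (BAT) had been taken from 6-week-old C57BL/6 mice, grown to near confluence and induced to adipogenesis. The induction medium (insulin, dexamethasone and isobutylmethylxanthine) was given until day 4 and a medium with insulin and T3 until day 8. Cells received the green tea catechin epigallocatechin gallate (EGCG) or, in the control, its solvent DMSO. The labels state no dose. Depot (WAT or BAT), day (4 or 8) and treatment (control or EGCG) gave 8 groups of 3 libraries, 24 in all, and every group carried the same strain and the same hormone schedule. The number of mice pooled per culture is not given in the sources used here, nor is the origin of the replicates from separate cultures, so p-values measure the spread between these libraries, which may be technical.

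Expression is in FPKM, reads scaled by transcript length and by library depth, and the values of replicates 1, 2 and 3 are separated by slashes in that order. Replicates 1 and 2 came in one table (39452696 to 52893848 reads on genes) and replicate 3 in another (16392420 to 41675643). Tests used replicates 1 and 2, with replicate 3 as a check of direction. In the WAT day 8 EGCG library of replicate 3, 61.0% of the reads fell on 5 genes, and its FPKM were a median 0.371 of the mean of replicates 1 and 2 over all genes tested and 0.372 over the members. Its low values below carry that scale. The summed FPKM of 8 mature adipocyte markers (Adipoq, Plin1 and others) on day 8 was 4903/5714/5092 in WAT control cells and 149.9/163/58.0 with EGCG. In BAT it was 9943/10035/9741 in control cells and 326/323/342 with EGCG. The white marker Hoxc10 was 0 to 0.121 FPKM in every BAT library, and the brown marker Zic1 was 0.0243 to 0.163 in every WAT library. Across days and treatments the full lists of 4 separated the depots less clearly. White markers summed to 36.9 to 40.2 FPKM in BAT day 8 EGCG and 38.5 to 43.1 in WAT day 4 EGCG libraries. Brown markers summed to 27.9 to 34.5 in WAT day 4 control and 30.6 to 41.7 in BAT day 8 control libraries. In control cells 4 of 4 white markers were lower in BAT than in WAT on both days. Of the brown markers 2 of 4 were higher in BAT on day 4 and 4 of 4 on day 8. Markers of smooth muscle and pericytes (5 genes) summed to 97.3 to 129 FPKM in BAT day 4 control libraries and 677 to 833 with EGCG, and to 389 to 527 and 1312 to 1669 on day 8. In WAT that sum was 156 to 181 in control and 77.9 to 83.4 with EGCG on day 4, and 439.8/317/355 and 649/639/320.4 on day 8. The 5 genes did not all move with their sum. With EGCG 1 rose and 4 fell in WAT on day 4, and 2 rose and 2 fell on day 8. In BAT 4 rose and 0 fell on day 4, and 3 rose and 2 fell on day 8. Of 5 endothelial markers, 4, 3, 5 and 5 rose with EGCG in WAT day 4, WAT day 8, BAT day 4 and BAT day 8, with sums of at most 34.2 FPKM in any library. Both mesothelial markers that were tested, of 4 listed, rose in all 4 comparisons, with sums of at most 30.7 FPKM. Of 5 tested progenitor and fibroblast markers, of 6 listed, 1 rose with EGCG in each comparison. In WAT day 4, WAT day 8, BAT day 4 and BAT day 8, 1, 4, 1 and 3 of them fell. Shares of all genes in each direction are given with the members' counts below. Fewer adipocytes and less RNA per adipocyte cannot be told apart in these bulk samples, and the part of cell composition in the changes below was not tested.

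MMPs are zinc proteases that cleave collagens, gelatin, proteoglycans and many growth factor binding proteins outside the cell. ADAMTS proteases are secreted, and their main groups trim the propeptides of fibrillar collagens, cut aggrecan and versican, or act on fibrillin and cartilage oligomeric matrix protein. TIMPs bind the active site of these enzymes, and TIMP3 is the one that sits in the matrix and also blocks ADAMTS proteases. In fat, precursor cells remodel a fibrillar collagen matrix as they round up and fill with lipid, and MMP14 at the cell surface is known to be needed for this in white fat.

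Of the 46 members, 31 reached 1 FPKM in at least 2 of the 16 libraries of replicates 1 and 2 and were tested among 14095 genes: 14 Mmp, 13 Adamts and all 4 Timp genes. The other 15 were low throughout: Adamts8, Adamts13, Adamts16, Adamts17, Adamts18, Adamts20, Mmp1a, Mmp1b, Mmp7, Mmp8, Mmp16, Mmp20, Mmp21, Mmp24 and Mmp25. The highest group mean among them was 1.10 FPKM, for the collagenase Mmp8 in WAT day 8 EGCG cells, and Mmp7 (matrilysin) had no read in any of the 24 libraries. At the other end, Timp1 ranked 71 and Mmp2 ranked 73 by mean level among the 14095 genes. Mmp14 ranked 164, Mmp3 181, Timp2 279, Adamts1 542, Adamts2 550 and Timp3 759. Averaged over the 16 libraries, gelatinase A, stromelysin 1, MT1-MMP and 3 of the inhibitors were thus among the more abundant messages. Not every group was high. Mean FPKM was 8.45 for Mmp3 in BAT day 8 EGCG cells and 9.52 for Timp3 in WAT day 4 control cells.

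EGCG against its control was the first comparison. On day 4 in WAT, 6 members rose and 10 fell, where 34.4% of all genes tested rose and 19.3% fell (53.7% called at adjusted p under 0.05 in limma). On day 8 in WAT, 13 rose and 11 fell, against 44.7% and 18.9% of all genes (63.6% in all). In BAT on day 4, 11 rose and 8 fell, against 27.9% and 20.6% (48.5% in all). In BAT on day 8, 14 rose and 9 fell, against 46.5% and 26.1% (72.6% in all). EGCG thus changed large shares of the transcriptome, and the members' counts are read against those shares. The median log2 change of the 31 members was -0.01, -0.02, 0.12 and 0.09 in WAT day 4, WAT day 8, BAT day 4 and BAT day 8, beside 0.09, 0.17, 0.03 and 0.17 for all genes tested. All log2 changes here are of FPKM + 1, which understates changes of low genes.

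Direction differed between families, and these small counts are to be read against the shares of all genes above. The 4 Timp genes gave 2 higher and 0 lower in WAT on day 4, 3 higher and 1 lower in WAT on day 8, 3 higher and 0 lower in BAT on day 4, and 3 higher and 1 lower in BAT on day 8. Of the 13 tested Adamts genes, 1 rose and 7 fell in WAT on day 4, 3 rose and 7 fell in WAT on day 8, 3 rose and 5 fell in BAT on day 4, and 4 rose and 5 fell in BAT on day 8. Among the 14 tested Mmp genes, 3 rose and 3 fell in WAT on day 4, and 7 rose and 3 fell in WAT on day 8. In BAT 5 Mmp genes rose and 3 fell on day 4, and 7 rose and 3 fell on day 8. The Mmp counts on day 8 were near the shares of all genes. Those shares were 44.7% higher and 18.9% lower in WAT, and 46.5% and 26.1% in BAT. Timp1, Timp3, Mmp2, Mmp17 and Adamts6 were called higher with EGCG in all 4 comparisons, and Adamts3, Adamts10 and Adamts15 lower in all 4. Some of the calls of Mmp2, Adamts3 and Adamts10 were lost under alternative fits, as given below.

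**Figure D1:**
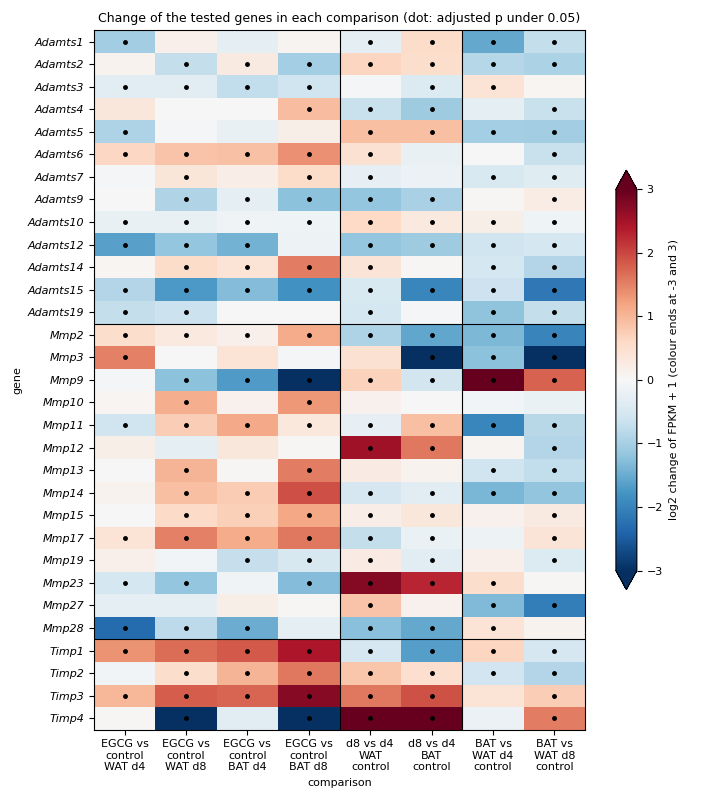
Log2 change of FPKM + 1 (colour) of the 31 tested members (rows) in 8 comparisons (columns), with a dot where limma's adjusted p was under 0.05. Timp1 and Timp3 are red in all 4 EGCG columns, and Timp4 is blue in both day 8 EGCG columns and red from day 4 to day 8 in control cells.

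Timp1 (ENSMUSG00000001131.5, chromosome X, 20447292 to 20451861, + strand) encodes a secreted inhibitor of most soluble MMPs. Gene coordinates are those of GENCODE vM1 on NCBIM37 (mm9). In WAT on day 4, its FPKM was 301/292/308 in control cells and 781/723/909.7 with EGCG. By day 8 in WAT it was 217/199/221 in control cells and 646/684/327 with EGCG. Control and EGCG libraries did not overlap on either day, even with the low replicate 3. BAT control cells had 504/429/505 on day 4, against 1768/1569/1740 with EGCG, the highest level of any member in any group. On day 8 in BAT the values were 134/159/186 in control cells and 778/797/873 with EGCG. Mean FPKM was 2.54-fold that of control in WAT on day 4, 3.19-fold in WAT on day 8, 3.58-fold in BAT on day 4 and 5.37-fold in BAT on day 8. The log2 changes were 1.34 (SE 0.09, adjusted p = 4.34e-07), 1.67 (SE 0.09, adjusted p = 4.08e-08), 1.84 (SE 0.09, adjusted p = 4.19e-08) and 2.42 (SE 0.09, adjusted p = 7.46e-10) in that order. In control cells Timp1 fell from day 4 to day 8, by a log2 change of -0.51 (adjusted p = 0.000622) in WAT and -1.66 (adjusted p = 2.4e-08) in BAT.

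Timp3 (ENSMUSG00000020044.7, chromosome 10, 85763117 to 85812251, + strand), the matrix-bound inhibitor, moved with EGCG as Timp1 did but rose rather than fell with time. Its exons overlap those of Syn3, transcribed from the other strand, and whether counting used the strand is not given in the sources used here. WAT day 4 control libraries had 9.14/9.90/8.29 FPKM and EGCG libraries 20.8/19.2/18.6. On day 8 the WAT values were 41.1/22.4/22.7 in control and 110.0/108/41.1 with EGCG. Control replicate 1 stood above the other controls there, and the low replicate 3 of the EGCG group reached its level, so the groups touched only through those libraries. In BAT, control and EGCG libraries had 11.7/14.2/14.1 and 46.8/44.3/37.0 on day 4. They had 45.3/58.0/51.9 and 341/355/278 on day 8, with no overlap on either day. The EGCG log2 changes were 1.0 (adjusted p = 0.00156) and 1.81 (adjusted p = 1.09e-05) in WAT and 1.74 (adjusted p = 2.54e-05) and 2.74 (adjusted p = 1.71e-07) in BAT, on days 4 and 8. The largest was a 6.74-fold higher mean FPKM. In control cells Timp3 rose from day 4 to day 8 by 1.58 (SE 0.20, adjusted p = 3.69e-05) in WAT and 1.91 (SE 0.20, adjusted p = 5.23e-06) in BAT.

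Timp2 (ENSMUSG00000017466.3, chromosome 11, 118162383 to 118217054, - strand), which also docks pro-MMP2 on MMP14, responded differently in the depots. In WAT on day 4 its FPKM was 115/115/111 in control and 104/113/106 with EGCG, a log2 difference of -0.08 (95% interval -0.30 to 0.14, adjusted p = 0.504). In BAT on day 4 it was 77.7/77.0/81.5 in control and 157/160.1/158 with EGCG, a rise of 1.03 (adjusted p = 5.43e-06). Every BAT EGCG library was thus above every control, while WAT libraries of the groups overlapped. By day 8 WAT held 177/238/244 in control and 299/296/120.0 with EGCG, and BAT 111/111/127 and 323/349/357. The log2 change was then 0.53 (adjusted p = 0.000578) in WAT and 1.59 (adjusted p = 3.79e-08) in BAT. Without WAT day 8 control replicate 1, the lowest of its group, the WAT value was 0.32 (adjusted p = 0.000376). EGCG's effect was larger in BAT than in WAT on both days, by 1.11 (SE 0.14, adjusted p = 0.0002) on day 4 and 1.06 (SE 0.14, adjusted p = 0.000146) on day 8.

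Timp4 (ENSMUSG00000030317.6, chromosome 6, 115195634 to 115201867, - strand) is the TIMP most restricted in its expression, with heart and fat among its known sites. In WAT control cells it was 0.702/0.362/0.862 FPKM on day 4 and 10.1/15.3/16.4 on day 8. BAT control cells had 0.456/0.236/1.05 on day 4 and 36.8/39.6/38.4 on day 8. All 3 day 8 libraries lay far above all 3 day 4 libraries in each depot, with log2 changes of 3.15 (SE 0.17, adjusted p = 3.1e-08) in WAT and 4.87 (SE 0.17, adjusted p = 7.26e-10) in BAT. With EGCG the day 8 level was 0.122/0.283/0.0847 in WAT and 0.302/0.280/0 in BAT. The change against control was -3.49 (SE 0.17, adjusted p = 1.1e-08) in WAT, a 62.7-fold lower mean FPKM, and -4.92 (SE 0.17, adjusted p = 2.4e-10) in BAT, a 131-fold lower mean. Those EGCG values rested on 9 and 16 reads in WAT and 20 and 21 reads in BAT in replicates 1 and 2. On day 4, when EGCG libraries had 0.560/0.545/0.482 in WAT and 0.0161/0.158/0.117 in BAT, the differences were 0.03 (95% interval -0.34 to 0.39, adjusted p = 0.9) and -0.31 (95% interval -0.67 to 0.06, adjusted p = 0.153). The fall of Timp4 on day 8 ran against the rises of the other TIMPs. With EGCG 8 of 8 mature adipocyte markers fell on day 8 in both depots, and 8 of 8 also fell on day 4 in both, where Timp4 was not called. Day 4 control libraries had at most 1.05 FPKM of Timp4, where log2 of FPKM + 1 left little room for a fall. In BAT every day 4 EGCG library was below every day 4 control. In BAT day 4 control cells the marker sum was 5178/6056/6731 FPKM and Timp4 was 0.456/0.236/1.05. In WAT day 8 control cells the sum was 4903/5714/5092 and Timp4 was 10.1/15.3/16.4. These groups differ in both depot and day, and a marker sum is weighted to its most abundant genes. The part of adipocyte content in the Timp4 values was not tested.

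**Figure D2:**
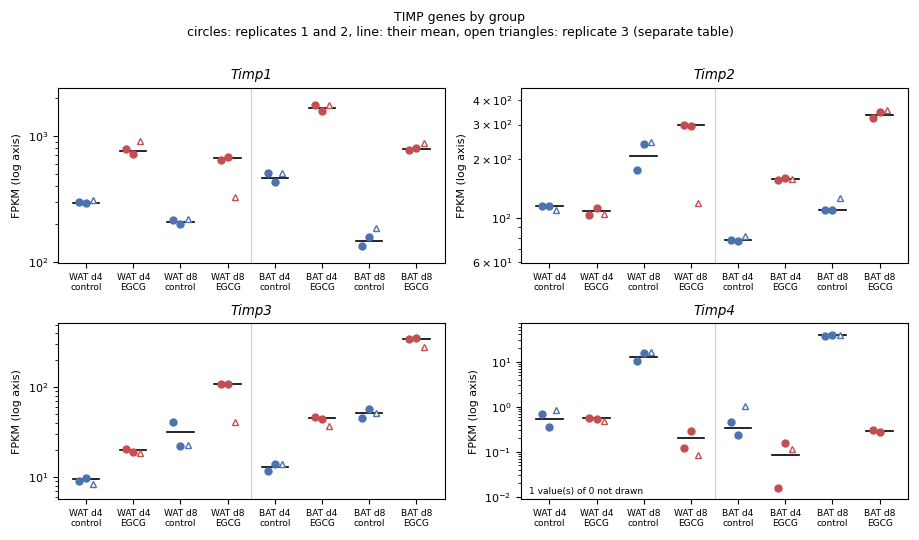
FPKM (log axis) of Timp1, Timp2, Timp3 and Timp4 in each library of the 8 groups, with blue for control and red for EGCG, circles and a mean line for replicates 1 and 2 and an open triangle for replicate 3. The WAT day 8 EGCG triangle lies low in every panel, and Timp4 drops below 1 FPKM with EGCG on day 8 in both depots.

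The summed level of the 4 TIMP genes was 446/475/505 FPKM in WAT day 8 control cells and 1056/1089/488 with EGCG. The corresponding BAT sums were 327/367/403 and 1443/1502/1508. For the 23 Mmp genes the sum was 1484/1253/1395 and 1659/1786/651 in WAT, and 387/395/422 and 868/853/837 in BAT, on day 8. The 19 Adamts genes summed to 668/613/601 and 473/494/164 in WAT and to 335/321/310.3 and 283/284/254 in BAT. Inhibitor and Mmp sums of replicates 1 and 2, as deposited, were above control with EGCG in both depots on day 8, and Adamts sums were below it. The WAT Mmp difference depends on scaling. Size factors of median-ratio scaling in WAT on day 8 were 0.955 and 0.946 in control and 1.11 and 1.10 with EGCG. Divided by them, the Mmp sums of the groups overlap.

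Mmp2 (ENSMUSG00000031740.7, chromosome 8, 95351227 to 95377316, + strand), gelatinase A, had the highest mean level over the 16 libraries among the proteases, although Mmp14 was above it in BAT day 8 EGCG cells. WAT control libraries had 982/983/949 FPKM on day 4 and 497/529.9/581 on day 8. BAT control libraries had 403/368/384 and 131/129.6/141. The level was thus higher in WAT than in BAT in every library of each day, by log2 differences (BAT minus WAT) of -1.35 (adjusted p = 3.6e-08) on day 4 and -1.97 (adjusted p = 1.61e-09) on day 8. It also fell with time in both depots, with changes of -0.94 (adjusted p = 9.91e-08) in WAT and -1.56 (adjusted p = 1.17e-09) in BAT. With EGCG, WAT libraries had 1359/1475/1456 on day 4 and 621/645/247 on day 8. BAT libraries had 415/444/468 and 283/284/291. The change was 0.53 (SE 0.06, adjusted p = 1.6e-05) in WAT on day 4 and 1.12 (SE 0.06, adjusted p = 7.94e-09) in BAT on day 8, where no library overlapped. It was 0.30 (adjusted p = 0.000707) in WAT on day 8, a call that median-ratio scaling of the libraries ended at 0.10 (adjusted p = 0.19). In BAT on day 4 it was 0.16 (adjusted p = 0.0445), and that call was lost in 10 of the 16 fits that left out 1 library, with values between 0.09 and 0.22.

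Mmp14 (ENSMUSG00000000957.8, chromosome 14, 55050441 to 55060095, + strand), the membrane-type protease MT1-MMP that activates pro-MMP2, rose with EGCG in 3 of the 4 comparisons. In WAT on day 4 it was 372/364/321 FPKM in control and 393/394/383 with EGCG, a difference of 0.10 (95% interval 0.00 to 0.20, adjusted p = 0.0967). On day 8 in WAT it was 271/248/264 in control and 479.7/499/179 with EGCG, a rise of 0.91 (adjusted p = 1.66e-08). In BAT the control and EGCG libraries held 139/144/127 and 242/242/224 on day 4. On day 8 they held 111/115/119.8 and 439/431/407. These were rises of 0.77 (adjusted p = 1.26e-07) and 1.93 (adjusted p = 1.98e-11), the second a 3.85-fold higher mean, and every BAT EGCG library was above every BAT control. Control levels were lower in BAT than in WAT, with differences of -1.37 (adjusted p = 7.97e-09) on day 4 and -1.19 (adjusted p = 5.63e-09) on day 8.

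The other membrane-type members that were tested rose with EGCG too. Mmp17 (ENSMUSG00000029436.7, chromosome 5, 130090089 to 130114086, + strand), the lipid-anchored MT4-MMP, had 13.9/15.8/15.7 FPKM in WAT day 4 control cells and 18.9/20.9/20.4 with EGCG. Its day 8 WAT values were 8.80/8.36/10.4 and 25.4/26.8/12.4. In BAT it had 13.7/13.0/11.9 and 29.9/30.2/36.6 on day 4, and 11.7/11.2/11.8 and 37.4/35.1/34.0 on day 8. EGCG libraries were above controls in all 4 pairs of groups, with log2 changes of 0.40 (adjusted p = 0.000322) and 1.50 (adjusted p = 5.52e-09) in WAT and 1.12 (adjusted p = 1.12e-07) and 1.58 (adjusted p = 1.17e-09) in BAT. Mmp15 (MT2-MMP) was lower, at 2.79/2.47/2.61 in WAT day 4 control, 2.68/2.50/2.30 with EGCG, 3.30/3.05/2.72 in day 8 control and 5.07/5.27/2.30 with EGCG. BAT libraries of Mmp15 had 2.74/3.14/2.85 in day 4 control, 5.18/5.67/6.30 with EGCG, 3.91/4.13/4.45 in day 8 control and 10.8/9.68/9.23 with EGCG. Its EGCG changes were -0.02 (95% interval -0.19 to 0.16, adjusted p = 0.885) and 0.56 (adjusted p = 6.57e-05) in WAT and 0.71 (adjusted p = 1.81e-05) and 1.16 (adjusted p = 7.83e-08) in BAT, so that only the WAT day 4 groups were not called. MT3-, MT5- and MT6-MMP (Mmp16, Mmp24 and Mmp25) were among the members too low to test.

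Mmp9 (ENSMUSG00000017737.2, chromosome 2, 164766280 to 164781350, + strand), gelatinase B, ran the other way from Mmp2. BAT control libraries had 13.8/10.9/10.6 FPKM on day 4 and 7.42/8.65/9.04 on day 8, while WAT control libraries had 0.601/0.639/0.692 and 1.38/1.90/2.2. Every BAT control library was above every WAT control library of its day, by 3.03 (SE 0.12, adjusted p = 2.52e-08) on day 4 and 1.78 (SE 0.12, adjusted p = 3.59e-07) on day 8. With EGCG, BAT fell to 2.93/3.30/4.13 on day 4 and 0.0807/0.0298/0.201 on day 8, changes of -1.69 (SE 0.12, adjusted p = 5.33e-07) and -3.10 (SE 0.12, adjusted p = 8.31e-10). The day 8 BAT mean was 146-fold lower than in control, on 12 and 5 reads in replicates 1 and 2. In WAT, EGCG libraries had 0.621/0.493/0.672 on day 4, a difference of -0.06 (95% interval -0.33 to 0.21, adjusted p = 0.716), and 0.103/0.119/0.0453 on day 8, a change of -1.24 (adjusted p = 3.7e-06). The effect was more negative in BAT than in WAT, with differences of -1.63 (SE 0.17, adjusted p = 5.61e-05) on day 4 and -1.85 (SE 0.17, adjusted p = 1.24e-05) on day 8.

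Macrophages and neutrophils are known sources of Mmp9. The summed FPKM of 6 macrophage markers (Cd68, Csf1r and others) in BAT was 161/151/172 in day 4 control, 384/344/413 with EGCG, 102/104/110.4 in day 8 control and 54.9/55.5/52.5 with EGCG. It thus rose on day 4, where Mmp9 fell, and fell on day 8, where Mmp9 fell as well. In WAT it was 72/66.7/71.2 and 184/180.2/167 on day 4, and 96.1/113/107 and 52.6/56.5/24.2 on day 8. The 5 neutrophil markers summed to at most 2.12 FPKM in any library. The part of these cells in the Mmp9 values was not tested.

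Mmp3 and 9 further Mmp genes lie side by side on chromosome 9. In the GENCODE vM1 annotation (NCBIM37, mm9) they span 7272514 to 7699585, or 427 kb, in the order Mmp13, Mmp12, Mmp1b, Mmp3, Mmp1a, Mmp10, Mmp8, Mmp27, Mmp20 and Mmp7, and no other protein-coding gene lies wholly within the span. RefSeq promoters were at hand for all 10. Of the 32 members with a promoter, 8 held TGANTCA (the letters bound by AP-1 factors such as Fos and Jun) in the 250 bases before the gene's start, on either strand, and all 8 were in this cluster: Mmp1a, Mmp1b, Mmp3, Mmp7, Mmp10, Mmp12, Mmp13 and Mmp20. Mmp8 and Mmp27 did not hold it. Among all 32851 mouse promoters in the same table, 6.75% held it. Shares of all promoters here count each promoter, while a member counted if any of its promoters matched. Mmp12 and Mmp7 each had a further promoter without the motif. TATAAA on the gene's strand was in 9 of the 32 (7.59% of all promoters) and AGGAAG on either strand in 13 of the 32 (29.5%). A match is a description of letters and not a bound site.

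The promoters of the 5 tested cluster genes are shown because these neighbours differ in level and response although they share the motif or lack it. Each is the 250 bases before the gene's start on the plus strand of GRCm38.p6, 5′ to 3′, with TGANTCA in capitals. The motif begins 46 bases before the start in Mmp3, 63 in Mmp10, 44 in Mmp12 (the downstream one of its 2 promoters) and 35 in Mmp13.
Mmp13 at chr9:7272264-7272513: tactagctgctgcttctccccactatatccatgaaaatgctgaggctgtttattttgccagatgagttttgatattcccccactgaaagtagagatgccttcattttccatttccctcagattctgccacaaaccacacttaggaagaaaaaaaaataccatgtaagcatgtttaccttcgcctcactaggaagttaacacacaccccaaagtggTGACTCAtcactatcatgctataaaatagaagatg
Mmp12 at chr9:7347124-7347373: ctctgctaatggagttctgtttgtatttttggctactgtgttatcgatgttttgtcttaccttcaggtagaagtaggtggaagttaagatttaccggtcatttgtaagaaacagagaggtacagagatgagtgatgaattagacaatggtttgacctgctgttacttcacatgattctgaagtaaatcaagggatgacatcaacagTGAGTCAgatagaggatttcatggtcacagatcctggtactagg
Mmp3 at chr9:7445572-7445821: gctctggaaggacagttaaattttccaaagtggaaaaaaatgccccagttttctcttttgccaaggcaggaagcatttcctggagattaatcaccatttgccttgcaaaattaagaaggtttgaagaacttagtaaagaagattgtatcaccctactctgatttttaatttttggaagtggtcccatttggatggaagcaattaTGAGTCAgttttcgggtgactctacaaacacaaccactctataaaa
Mmp10 at chr9:7502092-7502341: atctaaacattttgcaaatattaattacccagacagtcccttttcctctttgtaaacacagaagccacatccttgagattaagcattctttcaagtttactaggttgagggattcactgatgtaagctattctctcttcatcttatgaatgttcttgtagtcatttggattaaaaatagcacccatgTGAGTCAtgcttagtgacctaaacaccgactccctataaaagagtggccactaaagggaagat
Mmp27 at chr9:7571146-7571395: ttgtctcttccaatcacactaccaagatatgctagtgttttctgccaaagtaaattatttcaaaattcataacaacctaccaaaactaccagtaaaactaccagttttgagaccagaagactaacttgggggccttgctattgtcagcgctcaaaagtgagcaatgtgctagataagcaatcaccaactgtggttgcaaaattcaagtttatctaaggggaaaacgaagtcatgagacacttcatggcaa

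Mmp3 (ENSMUSG00000043613.7, chromosome 9, 7445822 to 7455972, + strand), stromelysin 1, was by far the highest of the cluster. In WAT it was 294/301/311 FPKM in day 4 control and 813/882/931 with EGCG, a 2.85-fold higher mean and a log2 change of 1.51 (SE 0.21, adjusted p = 8.93e-05). On day 8 in WAT it was 539.7/312/373 in control and 374/448/153 with EGCG, and the groups overlapped (0.00, 95% interval -0.46 to 0.45, adjusted p = 0.992). BAT control libraries had 139/116/138 on day 4 and 8.53/8.87/10.9 on day 8, a change of -3.72 (SE 0.21, adjusted p = 2.07e-08), where the WAT difference was 0.46 (95% interval 0.01 to 0.92, adjusted p = 0.0724). On day 8 Mmp3 was lower in BAT than in WAT, at -5.41 (SE 0.21, adjusted p = 5.31e-09), the largest depot difference of the 31 tested members. BAT EGCG libraries had 151/189/183 on day 4 and 9.38/7.52/8.83 on day 8, differences of 0.41 (95% interval -0.05 to 0.86, adjusted p = 0.126) and -0.04 (95% interval -0.50 to 0.41, adjusted p = 0.862).

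The neighbours were low and each had its own pattern. Mmp10 (stromelysin 2) had 0 reads in all 6 BAT control libraries, and in BAT day 8 EGCG libraries it had 110, 142 and 51 reads, or 1.37/1.56/1.72 FPKM. In WAT it went from 0.222/0.0869/0.175 FPKM in day 8 control to 1.37/1.50/0.767 with EGCG. Against libraries at 0 the fitted change depends on the pseudocount and is no bound. Both were called, at 1.08 (adjusted p = 3.43e-06) in WAT and 1.30 (adjusted p = 3.76e-07) in BAT, while day 4 differences were 0.07 (adjusted p = 0.613) in WAT and 0.12 (adjusted p = 0.374) in BAT. Mmp13 (collagenase 3) was likewise higher with EGCG on day 8. It went from 1.82/0.754/0.789 to 3.54/3.53/0.789 FPKM in WAT and from 0.346/0.303/0.275 to 2.32/3.48/2.90 in BAT, rises of 1.03 (adjusted p = 0.00099) and 1.54 (adjusted p = 2.92e-05). Day 4 libraries of Mmp13 held 0.976/0.776/0.821 and 1.02/0.714/1.02 in WAT and 0.102/0.374/0.378 and 0.204/0.334/0.371 in BAT, for control and EGCG, and the groups overlapped. For Mmp10 and Mmp13 the effect of EGCG was larger on day 8 than on day 4 by 1.01 (adjusted p = 0.000218) and 1.04 (adjusted p = 0.0121) in WAT, and by 1.18 (adjusted p = 4.77e-05) and 1.50 (adjusted p = 0.00106) in BAT. The WAT value of Mmp13 was not called with a pseudocount of 0.1 (1.53, adjusted p = 0.0592).

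Mmp12 (macrophage elastase), whose exons overlap those of Mmp1b, rose with time. In control cells it went from 0.122/0.0521/0.0682 FPKM to 9.26/2.88/3.83 in WAT and from 0.239/0.0845/0.253 to 2.37/2.52/1.95 in BAT, changes of 2.54 (adjusted p = 2.16e-05) and 1.57 (adjusted p = 0.000712). Over the same days the macrophage marker sum of control cells went from 72/66.7/71.2 to 96.1/113/107 in WAT. In BAT the sum went from 161/151/172 to 102/104/110.4. The markers did not all move with their sum. Of the 5 tested, 5 rose in WAT, and in BAT 1 rose, 1 fell and 3 were not called. The part of macrophages in the Mmp12 values was not tested. WAT day 8 control replicate 1 stood apart, and without it the WAT change was 1.84 (adjusted p = 3.48e-07). EGCG libraries had 0.188/0.254/0.276 and 3.84/4.41/1.60 in WAT and 0.484/0.440/0.653 and 2.42/2.67/2.55 in BAT, on days 4 and 8. The day 8 differences from control were -0.30 (adjusted p = 0.413) in WAT and 0.04 (adjusted p = 0.911) in BAT. The former became 0.40 (adjusted p = 0.0135) without that control library, so its sign rested on 1 library. Mmp27 was a WAT message, at 2.84/2.51/2.21 and 4.71/6.82/4.79 in control and 1.70/2.32/1.39 and 4.28/4.90/0.958 with EGCG on days 4 and 8. BAT libraries of Mmp27 had 0.679/0.269/0.438 and 0.486/0.706/0.833 in control and 0.527/0.799/0.724 and 0.449/0.864/0.457 with EGCG. BAT minus WAT in control cells was -1.33 (adjusted p = 0.000131) on day 4 and -2.07 (adjusted p = 3.27e-06) on day 8, and none of the 4 EGCG comparisons was called.

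**Figure D3:**
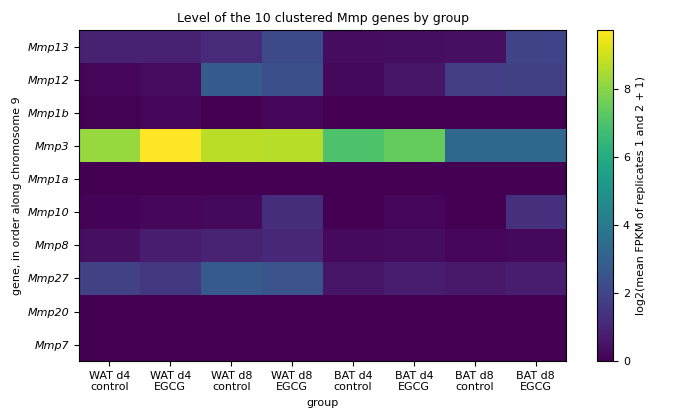
Colour shows log2 of the mean FPKM of replicates 1 and 2 plus 1 for the 10 clustered Mmp genes (rows, in their order along chromosome 9) in the 8 groups (columns). Mmp3 is bright in all WAT groups and dims in BAT by day 8, while Mmp1b, Mmp1a, Mmp20 and Mmp7 stay dark throughout.

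Mmp11 (ENSMUSG00000000901.8, chromosome 10, 75385967 to 75400678, - strand), stromelysin 3, which furin activates inside the cell, changed direction between depots on day 4. It shares exons with Gm867 on the same strand. WAT day 4 libraries had 60.3/55.5/47.5 FPKM in control and 34.3/41.4/34.2 with EGCG, a change of -0.60 (adjusted p = 0.000196). BAT day 4 libraries had 13.2/14.9/14.7 in control and 33.7/31.0/31.8 with EGCG, a rise of 1.15 (adjusted p = 1.18e-06). No library overlapped in either pair, and the difference between the depots was 1.75 (SE 0.13, adjusted p = 4.35e-06). On day 8, control and EGCG libraries had 50.3/47.4/54.9 and 79.2/85.4/29.6 in WAT, a rise of 0.74 (adjusted p = 2.41e-05). In BAT they had 26.0/28.4/29.8 and 35.6/32.4/32.2, and the value of 0.31 (adjusted p = 0.0094) was not called without BAT day 8 control replicate 1 (0.25, adjusted p = 0.0735), without BAT day 8 EGCG replicate 1 (0.25, adjusted p = 0.0776) or after median-ratio scaling (0.12, adjusted p = 0.263).

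Mmp28 (epilysin), Mmp23 and Mmp19 complete the tested MMPs. Mmp28 (ENSMUSG00000020682.11, chromosome 11, 83254270 to 83276573, - strand) had the most negative log2 change of FPKM + 1 among the 31 tested members with EGCG on day 4 in WAT, from 11.8/11.7/11.7 to 1.62/1.54/1.50 FPKM, a change of -2.30 (SE 0.12, adjusted p = 4.05e-08). In BAT on day 4 it went from 14.1/17.8/16.4 to 4.58/5.37/5.99, a change of -1.50 (adjusted p = 1.19e-06). By day 8 controls had themselves declined, and control and EGCG libraries held 4.93/3.81/3.90 and 1.90/2.31/0.844 in WAT (-0.78, adjusted p = 0.000131). The day 8 BAT libraries held 5.03/4.50/5.40 and 3.84/3.72/3.62 (-0.27, adjusted p = 0.0633). The decline of Mmp28 with EGCG was smaller on day 8 than on day 4 by 1.52 (adjusted p = 2.97e-05) in WAT and 1.23 (adjusted p = 9.19e-05) in BAT.

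Mmp23, a membrane protease of type II orientation, was a late gene. It rose in control cells from 6.32/6.5/7.10 FPKM on day 4 to 53.9/44.3/48.2 on day 8 in WAT, and from 10.0/9.19/11.5 to 49.6/51.2/57.9 in BAT, changes of 2.75 (adjusted p = 9.57e-10) and 2.28 (adjusted p = 1.32e-09). EGCG libraries had 4.06/4.26/3.24 and 21.0/21.3/8.63 in WAT and 8.20/9.67/9.99 and 19.5/20.4/20.6 in BAT. Against control these were -0.52 (adjusted p = 0.000367) on day 4 and -1.17 (adjusted p = 3.49e-07) on day 8 in WAT, and -0.10 (adjusted p = 0.381) and -1.29 (adjusted p = 6.96e-08) in BAT. Mmp19 was steady by comparison. It had 32.9/33.0/35.4 and 36.6/42.4/43.5 FPKM in WAT control and 36.7/37.1/38.7 and 37.5/36.7/13.5 in WAT EGCG libraries. In BAT it had 37.4/36.5/36.1 and 29.3/29.0/28.9 in control and 21.5/23.9/23.4 and 21.5/20.1/21.5 with EGCG, and fell, with changes of -0.68 (adjusted p = 4.43e-06) on day 4 and -0.47 (adjusted p = 3.7e-05) on day 8. In WAT its EGCG differences of 0.16 (adjusted p = 0.0563) and -0.08 (adjusted p = 0.278) were not called. Median-ratio scaling called the second (-0.28, adjusted p = 0.00348).

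**Figure D4:**
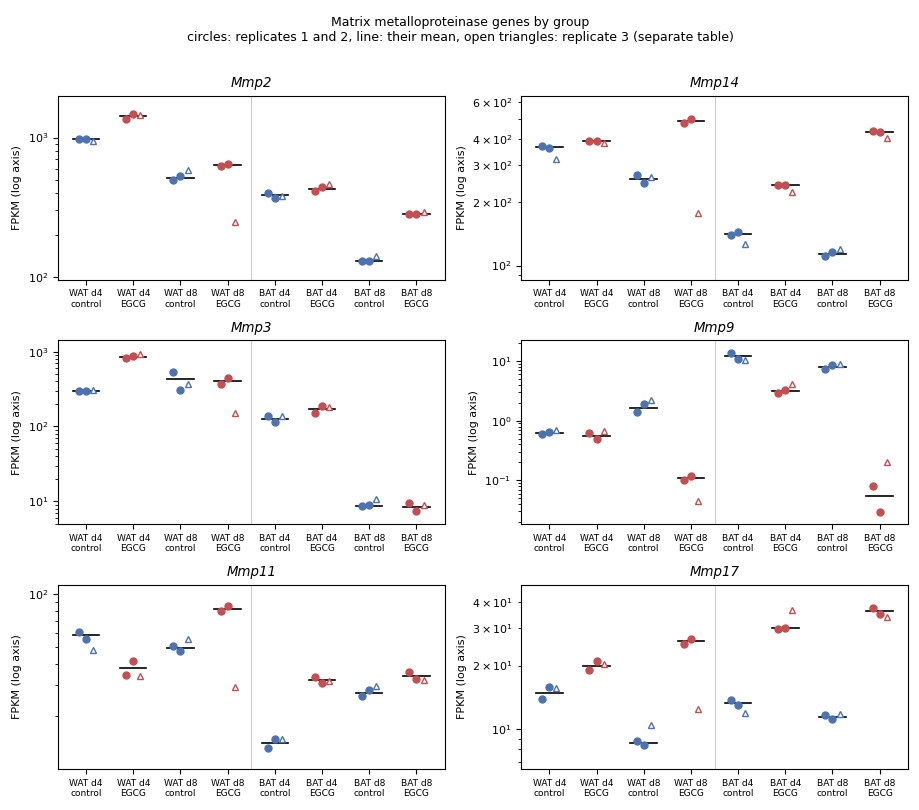
FPKM (log axis) of Mmp2, Mmp14, Mmp3, Mmp9, Mmp11 and Mmp17 in each library of the 8 groups, with symbols as in the plot of TIMP genes. Mmp9 is high in BAT control cells and drops with EGCG, and Mmp3 falls to about 10 FPKM in BAT by day 8 with either treatment.

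Several of the ADAMTS genes whose products cut aggrecan and versican were abundant. Adamts1 (ENSMUSG00000022893.8, chromosome 16, 85794072 to 85803358, - strand) and Adamts5 (ENSMUSG00000022894.5, chromosome 16, 85858415 to 85901370, - strand) are neighbours, 55.1 kb apart. Adamts1 had 172/170.5/150.4 FPKM in WAT day 4 control and 81.4/82.7/75.1 with EGCG, a change of -1.05 (SE 0.10, adjusted p = 5.33e-06). Adamts5 had 58.5/62.9/52.2 and 29.7/33.3/24.6 in the same groups, a change of -0.92 (SE 0.09, adjusted p = 4.58e-06). For both genes each EGCG library was below each control. On day 8 in WAT, Adamts1 had 164/123/130.0 in control and 156/161/53.2 with EGCG, and Adamts5 118/112/103 and 108/115/34.3. Those differences were 0.16 (95% interval -0.06 to 0.38, adjusted p = 0.195) and -0.05 (95% interval -0.24 to 0.14, adjusted p = 0.66). The WAT day 8 effect was less negative than the day 4 effect by 1.21 (adjusted p = 4.44e-05) for Adamts1 and 0.88 (adjusted p = 0.00015) for Adamts5.

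BAT held less of both neighbours. Adamts1 libraries had 57.8/59.0/54.4 FPKM in day 4 control, 45.4/52.2/48.2 with EGCG, 86.6/84.6/77.7 in day 8 control and 89.4/92.5/86.5 with EGCG. Adamts5 libraries had 28.8/30.0/24.7, 22.6/28/22.6, 57.6/53.3/48.3 and 62.3/62.7/49.1 in the same order. Their BAT EGCG changes were not called: -0.26 (adjusted p = 0.0545) and 0.09 (adjusted p = 0.459) for Adamts1, -0.22 (adjusted p = 0.0572) and 0.17 (adjusted p = 0.1) for Adamts5. Control BAT minus control WAT on day 4 was -1.53 (adjusted p = 5.58e-07) for Adamts1 and -1.02 (adjusted p = 3.4e-06) for Adamts5. From day 4 to day 8 Adamts5 rose in both depots, by 0.91 (adjusted p = 3.17e-06) in WAT and 0.89 (adjusted p = 2.48e-06) in BAT.

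Adamts15 (ENSMUSG00000033453.7, chromosome 9, 30706740 to 30730037, - strand) fell with EGCG in all 4 comparisons. WAT libraries had 144/148/144 FPKM in day 4 control and 73.1/84.8/69.3 with EGCG. On day 8 they had 107/105/104 and 30.0/32.6/9.75. BAT libraries had 97.2/91.6/85.7 and 33.2/42.6/39.7 on day 4, and 24.5/22.3/22.8 and 6.30/5.65/5.90 on day 8. No EGCG library reached its control in any pair, and the changes were -0.89 (SE 0.10, adjusted p = 2.67e-05) and -1.73 (SE 0.10, adjusted p = 6.45e-08) in WAT and -1.30 (SE 0.10, adjusted p = 1.11e-06) and -1.81 (SE 0.10, adjusted p = 1.84e-08) in BAT. In control cells it also fell with time in BAT (-1.97, adjusted p = 1.36e-08), and on day 8 BAT minus WAT was -2.14 (adjusted p = 2.57e-08). Its neighbour Adamts8, 20.1 kb away on the opposite strand, was too low to test.

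Adamts9 and Adamts4 are further aggrecan and versican proteases. Adamts9 declined with time, from 11.4/13.2/11.8 FPKM on day 4 to 4.51/5.36/4.48 on day 8 in WAT control cells and from 12.2/13.1/11.7 to 6.08/5.72/5.17 in BAT, changes of -1.17 (adjusted p = 2.21e-07) and -0.98 (adjusted p = 5.17e-07). EGCG libraries had 12.2/12.7/12.4 and 2.23/2.10/0.901 in WAT and 9.77/10.3/8.80 and 1.95/1.90/1.68 in BAT, with day 8 changes of -0.90 (adjusted p = 1.54e-06) and -1.24 (adjusted p = 5.13e-08). Its exons overlap those of genes on the other strand, as do those of Adamts7, Mmp19 and Mmp28. Adamts4 had 20.3/21.3/19.0 and 17.2/9.30/7.57 in WAT control and 27.4/25.3/24 and 11.9/13.1/4.65 in WAT EGCG libraries on days 4 and 8. BAT had 17.5/16.8/13.7 and 7.63/7.69/6.37 in control and 16.7/18.1/15.7 and 15.6/15.5/13.6 with EGCG, and the day 8 rise of 0.93 (adjusted p = 0.000568) was the only one of its 4 EGCG differences to be called. In WAT on day 8 the difference of -0.02 (adjusted p = 0.932) became 0.39 (adjusted p = 0.000619) without control replicate 1.

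Procollagen trimming is the task of Adamts2, Adamts3 and Adamts14. Adamts2 (ENSMUSG00000036545.8, chromosome 11, 50415586 to 50621075, + strand) had 114/121/113 FPKM in WAT day 4 control and 126/127/124 with EGCG (0.10, adjusted p = 0.0625). On day 8 WAT had 183/183/190.1 in control and 109.6/113/43.7 with EGCG, a change of -0.71 (adjusted p = 6.22e-08). BAT had 64.7/65.2/66.2 and 76.0/82.0/83.4 on day 4, a rise of 0.28 (adjusted p = 0.000204). On day 8 it had 94.1/93.1/104 and 45.7/44.9/49.7, a change of -1.03 (adjusted p = 1.11e-09), so the BAT effect changed sign between days, with a difference of -1.31 (adjusted p = 3.06e-08). Adamts14, at 0.769 to 5.04 FPKM over all libraries, rose in WAT on day 8 (0.55, adjusted p = 0.00015) and in BAT by 0.40 (adjusted p = 0.00231) on day 4 and 1.53 (adjusted p = 1.43e-08) on day 8. Adamts3, at 0.203 to 2.15 FPKM, fell in BAT, with changes of -0.75 (adjusted p = 0.000392) on day 4 and -0.60 (adjusted p = 0.000925) on day 8. Its WAT values of -0.35 (adjusted p = 0.0342) and -0.33 (adjusted p = 0.0375) were lost as calls when any 1 of the 4 libraries compared was left out.

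Adamts12 (ENSMUSG00000047497.8, chromosome 15, 10994545 to 11276622, + strand) and Adamts7 can cut cartilage oligomeric matrix protein. Adamts12 had 74.2/88.1/56.4 FPKM in WAT day 4 control and 21.8/29.5/14.7 with EGCG, a change of -1.63 (SE 0.12, adjusted p = 7.58e-07). In WAT on day 8 it had 34.1/37.6/26.4 and 15.2/15.8/4.38, a change of -1.16 (adjusted p = 6.58e-06). In BAT on day 4 it had 52.1/53.6/35.0 and 18.0/20.4/13.4, a change of -1.42 (adjusted p = 2.17e-06). BAT day 8 was the exception, with 26.3/23.0/16.9 in control and 22.3/22.2/14.8 with EGCG (-0.14, adjusted p = 0.32), and the effect there was less negative than in WAT by 1.02 (adjusted p = 0.000821). Adamts7, at 1.90 to 5.21 FPKM, rose on day 8, by 0.36 (adjusted p = 0.00335) in WAT and 0.55 (adjusted p = 0.000104) in BAT. The WAT call was lost with median-ratio scaling (0.20, adjusted p = 0.0748).

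Adamts6 and Adamts10 are linked to fibrillin microfibrils. Adamts6 had 2.65/2.93/1.48 FPKM in WAT day 4 control, 4.44/5.21/3.21 with EGCG, 4.6/3.84/2.7 in day 8 control and 8.30/8.56/1.93 with EGCG. BAT had 2.62/3.04/1.97, 6.79/5.43/3.20, 2.35/2.18/1.53 and 7.71/7.09/4.69 in the same order. It was the only Adamts gene called higher in all 4 comparisons, at 0.62 (adjusted p = 0.000495) and 0.86 (adjusted p = 2.53e-05) in WAT and 0.89 (adjusted p = 3.29e-05) and 1.36 (adjusted p = 2.75e-07) in BAT. Adamts10 had 16.2/16.5/15.8 and 25.9/25/23.8 in WAT control and 14.4/13.6/13.1 and 21.4/22.1/7.44 with EGCG on days 4 and 8. BAT had 18.7/18.6/16.1 and 23.0/23.3/21.0 in control and 17.4/17.2/15.3 and 20.8/21.1/19.0 with EGCG. Its decreases were small: -0.22 (adjusted p = 0.000753) and -0.21 (adjusted p = 0.000548) in WAT, -0.10 (adjusted p = 0.0498) and -0.14 (adjusted p = 0.00873) in BAT. The BAT day 4 call was lost in 12 of the 16 fits that left out 1 library, and the BAT day 8 call without EGCG replicate 1 (-0.13, adjusted p = 0.0501). Adamts19, at 0 to 1.90 FPKM, was a WAT message that fell with EGCG, at -0.71 (adjusted p = 0.000206) on day 4 and -0.65 (adjusted p = 0.000268) on day 8, and in BAT no library exceeded 0.0381 FPKM.

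**Figure D5:**
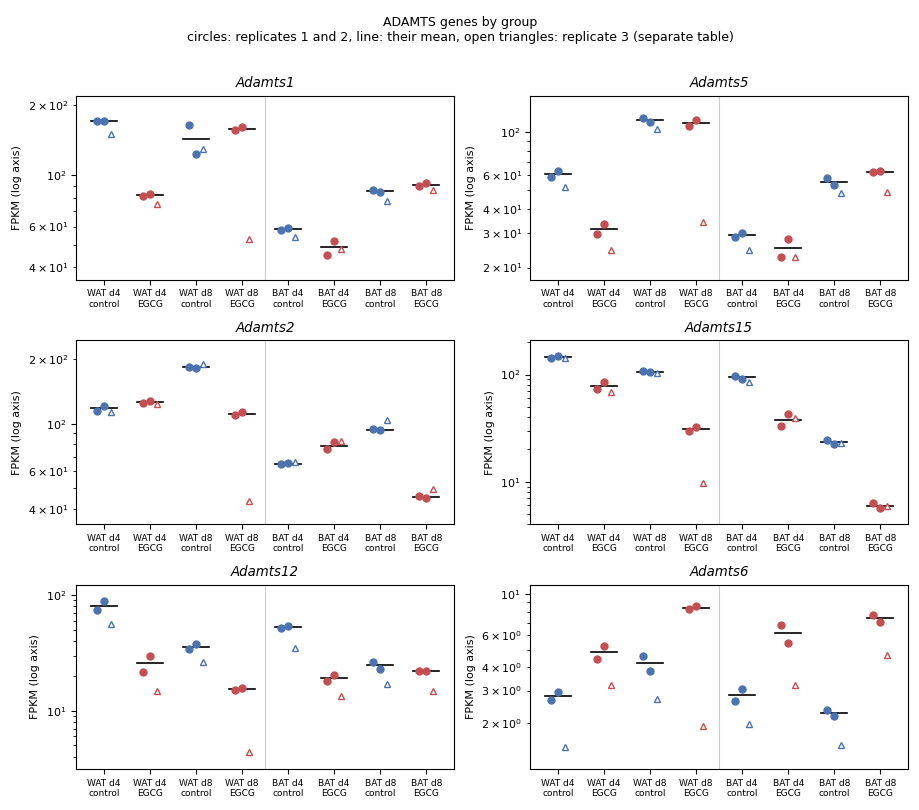
FPKM (log axis) of Adamts1, Adamts5, Adamts2, Adamts15, Adamts12 and Adamts6 in each library of the 8 groups, with symbols as in the plot of TIMP genes. Adamts15 lies lower with EGCG in all 4 pairs of groups, and Adamts6 circles lie higher.

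Time and depot in control cells were the next comparisons. From day 4 to day 8 in WAT, 14 members rose and 13 fell, against 27.7% and 33.2% of all genes tested (61% called). In BAT 11 rose and 13 fell, against 28.7% and 40.4% (69.2% called). Timp4, Mmp23 and, at lower level, Mmp12 had the highest WAT values, and Timp4, Mmp23 and Timp3 the highest BAT values. The lowest were Mmp28, Adamts9 and Adamts12 in WAT, and Mmp3, Adamts15 and Timp1 in BAT.

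Between depots, 6 members were higher and 15 lower in BAT than in WAT on day 4, against 41.4% and 14.4% of all genes (55.8% called). With median-ratio scaling, which moved the median of all genes from 0.15 to 0.02, the members split 3 higher and 16 lower. Shares of all genes under that scaling are not given here. In the main fit, the members at either end were as follows. The highest were Mmp9, Timp1 (0.65, adjusted p = 0.000156) and Mmp23 (0.52, adjusted p = 0.000414), and the lowest Mmp11 (-1.97, adjusted p = 5.2e-08), Adamts1 and Mmp14. On day 8, 6 were higher and 21 lower, against 31.6% and 22% (53.6% called). Of the 5 tested progenitor and fibroblast markers, 1 was higher and 3 were lower in BAT on day 4, and 0 and 5 on day 8. The part of such cells in the depot differences was not tested. Of the 13 tested Adamts genes 11 were lower in BAT on day 8 and 1 was higher, and of the 14 Mmp genes 8 were lower and 3 higher. The genes higher in BAT on day 8 were Mmp9, Timp4 (1.54, adjusted p = 1.27e-05), Timp3 (0.74, adjusted p = 0.00982), Mmp17 (0.38, adjusted p = 0.000473), Mmp15 (0.27, adjusted p = 0.0142) and Adamts9 (0.22, adjusted p = 0.037). Among these, the call for Timp3 was lost without BAT day 8 control replicate 2 (0.56, adjusted p = 0.0874) or WAT day 8 control replicate 2 (0.31, adjusted p = 0.0654), and was 1.16 (adjusted p = 3.16e-05) without WAT day 8 control replicate 1. That for Mmp15 was lost without WAT day 8 control replicate 2 (0.22, adjusted p = 0.0801) or BAT day 8 control replicate 2 (0.23, adjusted p = 0.0795). Adamts9 was not called without WAT day 8 control replicate 1 (0.12, adjusted p = 0.286) or either BAT day 8 control library, with 0.18 (adjusted p = 0.167) for replicate 1 and 0.26 (adjusted p = 0.0598) for replicate 2.

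EGCG's effect was then compared between depots and days by interaction terms. On day 4 the effect differed between BAT and WAT for 16 of the 31 members (12 more positive in BAT, 4 more negative), against 12% and 16.1% of all genes (28.1% called). On day 8 it differed for 18 (12 and 6), against 19.4% and 19.7% (39.2% called). Between days it differed for 23 members in WAT (14 more positive on day 8 and 9 more negative), against 29.7% and 19.7% (49.4% called). In BAT it differed for 23 (16 and 7), against 34.7% and 20.6% (55.4% called). These comparisons share control libraries with those above and are not independent of them.

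Genes that work beside the members were read from a list of 26: ADAM proteases, ADAMTS-like proteins, and the activators, inhibitors and cathepsins of the cell surface. All 26 were tested. With EGCG, 17 rose and 3 fell in WAT on day 4, 16 rose and 7 fell in WAT on day 8, 19 rose and 3 fell in BAT on day 4, and 15 rose and 7 fell in BAT on day 8. Of all genes tested, 34.4%, 44.7%, 27.9% and 46.5% rose in these comparisons, and 19.3%, 18.9%, 20.6% and 26.1% fell. The median log2 changes of the 26 genes were 0.44, 0.37, 0.44 and 0.43, beside 0.09, 0.17, 0.03 and 0.17 over all genes tested. Serpine2, which encodes a secreted inhibitor of serine proteases, rose in all 4 comparisons (1.80, 2.54, 0.78 and 2.02), and so did the activator gene Plat (0.56, 1.77, 0.63 and 2.45) and the collagenolytic cathepsin gene Ctsk (0.42, 0.93, 0.70 and 1.86).

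Other regulators of the members moved unevenly. Reck, a membrane inhibitor of MMPs, rose in WAT on day 4 (0.81, adjusted p = 3.63e-07) and in BAT by 0.52 (adjusted p = 1.36e-05) on day 4 and 0.36 (adjusted p = 0.000102) on day 8, with a WAT day 8 value of 0.09 (adjusted p = 0.174). Bsg, which encodes the MMP inducer basigin, rose on day 4 by 1.03 (adjusted p = 5.56e-07) in WAT and 0.40 (adjusted p = 0.000965) in BAT. On day 8 it fell, with changes of -0.28 (adjusted p = 0.00591) and -1.97 (adjusted p = 5.84e-10). Furin, which activates Mmp11 and the membrane-type MMPs, rose in all 4 (0.27, 0.53, 0.22 and 0.50).

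The 14 listed substrates of ADAMTS proteases gave 7 tested genes, of which 2 rose and 2 fell in WAT on day 4, 3 and 4 in WAT on day 8, 2 and 4 in BAT on day 4, and 3 and 4 in BAT on day 8. Shares of all genes that rose and fell are those given above for the related genes. The versican gene Vcan had 32.9/30.8/28.5 FPKM in WAT day 8 control and 84.3/83.3/27.0 with EGCG, and rose by 1.37 (adjusted p = 1.57e-08) there and by 1.37 (adjusted p = 5.87e-09) in BAT. Col1a1, a substrate of Adamts2, fell in all 4 comparisons (-0.92, -1.50, -0.45 and -0.67), as Adamts2 did on day 8. Comp, the target of Adamts7 and Adamts12, fell, with changes of -2.27 (adjusted p = 1.36e-09) in WAT and -3.25 (adjusted p = 3.24e-11) in BAT on day 8.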

How the data were processed

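Per the labels, RNA of 24 libraries was sequenced after Trizol extraction and Illumina library preparation. The submitters' processing notes name FastQC 0.11.9, HISAT2 2.2.0, HTSeq 0.11 and mm9. Use of strand is not given in the sources used here. The authors deposited FPKM values in 2 separately scaled tables (replicates 1 and 2, then replicate 3). All values multiplied by gene length gave whole reads at a tolerance of 0.01, which set the depth per library (39452696 to 52893848 reads in replicates 1 and 2, 16392420 to 41675643 in replicate 3). All 37310 gene lengths matched the longest GENCODE vM1 transcript.

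Genes with FPKM of at least 1 in at least 2 of 16 libraries (14095) were fitted as log2(FPKM + 1) with 1 mean per group in limma 3.58.1 (R 4.3.3; lmFit, contrasts.fit, eBayes with a trend; residual degrees of freedom were 8, or 11.4 in the moderated statistic). Two-sided p-values were Benjamini-Hochberg adjusted within each of 12 contrasts and called under 0.05. The fit was tested on simulated data. Replicate 3 gave direction only: of the called members, 16 of 16, 15 of 24, 19 of 19 and 23 of 23 moved the same way in it as deposited for EGCG in WAT day 4, WAT day 8, BAT day 4 and BAT day 8, and 16, 23, 19 and 22 after median-ratio scaling. Values in every library are given for the 25 members with a mean of at least 5 FPKM in a group and for 3 called members at either end of each contrast. Alternatives were a pseudocount of 0.1, no filter, median-ratio scaling, quantile normalization, a replicate block, both tables together with a table term, and leaving out each library. Promoters came from RefSeq (GRCm38.p6, 32 of 46 members matched). The values of 1 gene of the list of related genes are not reported here. Members and lists were chosen with earlier results of these data known. Python 3.11.15, pandas 2.3.3, numpy 2.4.6 and matplotlib 3.10.9 were used.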

Additional observations from a re-analysis of the deposited data

Results flagged for a closer look

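The effect of EGCG differed between groups by an interaction term in limma, and members whose effect differed by at least 1 on the log2 scale are named with that difference. Between BAT and WAT on day 4, 16 members differed: Mmp11 by 1.75 and Timp2 by 1.11 (more positive in BAT), Mmp9 by -1.63 and Mmp3 by -1.10. The Mmp3 call was lost without WAT day 4 EGCG replicate 2 (-1.04, adjusted p = 0.0501), BAT day 4 control replicate 1 (-0.97, adjusted p = 0.0601) or BAT day 4 EGCG replicate 1 (-0.93, adjusted p = 0.0673). On day 8, 18 members differed: Timp2 by 1.06, Mmp14 by 1.02 and Adamts12 by 1.02, against Mmp9 by -1.85 and Timp4 by -1.44. The Timp4 difference was not called with a pseudocount of 0.1 (-1.19, adjusted p = 0.138).

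Between day 8 and day 4 in WAT, 23 members differed. The effect was more positive on day 8 for Mmp28 by 1.52, Mmp11 by 1.35, Adamts1 by 1.21, Mmp17 by 1.10, Mmp13 by 1.04 and Mmp10 by 1.01. It was more negative for Timp4 by -3.52, Mmp3 by -1.51 and Mmp9 by -1.18. In BAT, 23 members differed between days as well. The effect was more positive on day 8 for Mmp13 by 1.50, Adamts12 by 1.28, Mmp28 by 1.23, Mmp10 by 1.18, Mmp14 by 1.16 and Adamts14 by 1.13. It was more negative for Timp4 by -4.62, Mmp9 by -1.40, Adamts2 by -1.31 and Mmp23 by -1.20.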

How the results depend on the processing

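Of 372 member values tested, 261 were called, and 209 of these kept direction and call under all alternatives other than both tables as deposited, 158 under all of them. Fitting both tables as deposited, with the low WAT day 8 EGCG library of replicate 3, cut the members whose EGCG effect differed between depots on day 4 from 16 to 5, between days in WAT from 23 to 9 and between days in BAT from 23 to 13. That fit reversed Mmp2 for EGCG in WAT on day 8 (-0.21) and the depot differences on day 8 of Adamts2 (0.13), Mmp11 (0.039) and Mmp19 (0.15). It split the EGCG calls in WAT on day 8 into 5 higher and 12 lower, and the shares of all genes under that fit are not given here. Both tables with median-ratio scaling reversed Adamts10 between depots on day 4 (-0.023). Leaving out 1 library turned the sign for EGCG in WAT on day 8 of Adamts4 (-0.43 to 0.39) and Mmp12 (-1.004 to 0.40), in both with WAT day 8 control replicate 1 left out. The cause was not tested.

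Median-ratio scaling moved the median of all genes for EGCG from 0.17 to 0.01 in WAT and 0.02 in BAT on day 8, and from 0.09 to -0.02 in WAT on day 4. The EGCG calls were then 11 higher and 13 lower in WAT, and 13 and 11 in BAT, on day 8. Shares of all genes called in each direction under that scaling are not given here. These counts therefore cannot set the members apart from all genes. Leaving out 1 library gave 15 to 19, 23 to 27, 16 to 23 and 21 to 24 called members for EGCG in WAT day 4, WAT day 8, BAT day 4 and BAT day 8, 24 to 27 and 22 to 24 between days in WAT and BAT, and 18 to 24 and 23 to 27 between depots on days 4 and 8. It gave 14 to 20 and 14 to 19 for the depot differences in effect, and 18 to 23 and 20 to 25 for the day differences in WAT and BAT. Among the 16 libraries used for tests, same-numbered replicates did not deviate together. Correlations were -0.079 to 0.081 over 28 pairs of groups, 0 of them over 0.1. Low correlations cannot show that the samples were not paired. With the replicate block the EGCG counts were 16, 24, 18 and 23. The 15 members that were not tested did not reach 1 FPKM in enough libraries to pass the filter. For Adamts17 this was not a limit on reads, as it had up to 297 in a library. Others had few reads in any of the 16 libraries, with 0 for Mmp7 and at most 4 for Mmp1a and Mmp20 and 5 for Adamts13. No test of the 15 members is given here.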
